A study of Mus musculus with 8 samples.

Results

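Cells induced to express c-Fos were treated with afatinib or with its vehicle, and the 2 treatments were compared across all genes. The comparison used 4 of the 8 libraries of the series, 2 with afatinib and 2 with DMSO, chosen by their treatment labels. The deposited table paired its counts with 24883 gene symbols after date-like symbols were dropped, and 12879 of these had enough counts to be tested. Messenger RNA was sequenced from ASZ001, a line grown from a mouse basal cell carcinoma of the skin, in a study titled around the transition from basal to squamous carcinoma. The cells carried a doxycycline-inducible vector with c-FOS, a subunit of the transcription factor AP-1. All groups received doxycycline for 24 h, and afatinib at 5 µM or DMSO was then given for 6 h. A further c-Fos group received UO126 at 10 µM for 6 h, and an empty-vector group carried the same kind of vector without c-FOS, with a label that names doxycycline and no vehicle. Whether the vector held the mouse or the human gene, and whether the cells were a clone or a pool, is not stated in the labels. The series' design text calls the libraries duplicates without naming separate cultures, and the p-values thus reflect only how far these duplicates lie apart, which may be a technical spread.

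Afatinib binds irreversibly to the kinase domain of the epidermal growth factor receptor (EGFR) and its relatives ERBB2 and ERBB4. Activated receptors signal through RAS, RAF, MEK and the kinase ERK, and through phosphoinositide 3-kinase and AKT. ERK induces its own brakes, among them the DUSP phosphatases and the Sprouty and Spred proteins, so the messages of these genes are a common readout of ERK activity. UO126 inhibits MEK, which lies below the receptors. In epidermis and its tumours the EGFR pathway drives keratinocyte growth and restrains differentiation.

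Library totals lay between 17858886 counts (DMSO replicate 2) and 23075507 counts (empty vector replicate 1) over the 8 libraries. Keratinocyte genes were abundant: Krt5 had 8136 and 8492 CPM with DMSO and 7151 and 7046 CPM with afatinib, and Krt14, which shares reads with close copies, had 7499 and 7827 CPM with DMSO and 7229 and 7023 CPM with afatinib. The simple-epithelium keratins Krt8 and Krt18 were nearly absent, with at most 1 count of Krt18 in any library. Markers of other cell types had means under 10 CPM with DMSO and with afatinib, apart from Flt1 and Pecam1 of the endothelial list and Mitf of the melanocyte list. The 12 fibroblast markers summed to 9.44 and 10.1 CPM with DMSO and to 7.60 and 8.18 CPM with afatinib, and Lum and Thy1 had 0 counts in all libraries. The 9 leukocyte markers summed to 14.2 and 13.1 CPM with DMSO and to 15.4 and 13.4 CPM with afatinib, with Tyrobp at 0. Endothelial and melanocyte markers summed to between 146 and 168 CPM and to between 40.6 and 47.7 CPM in the 4 libraries, with Kdr, Tie1 and Tyr at 0, and the part of any other cell type in the results was not tested. A lower level in bulk RNA can come from fewer cells of a type or from less RNA per cell, and these cannot be told apart. Levels are CPM, counts scaled to a common library size, given for DMSO replicates 1 and 2 and then for afatinib replicates 1 and 2. Changes are log2 fold changes with afatinib against DMSO ± standard error (n = 2 libraries per group) from 1 edgeR fit to all 8 libraries, and a gene was called at an adjusted p under 0.05.

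At that threshold 2725 of the 12879 genes were higher (21.2%) and 2772 were lower (21.5%), or 42.7% in both directions together. Counts of list members below are to be read beside these shares. The median change over all genes tested was -0.00. Most changes were small: 346 genes were called at least 2-fold higher (2.69%) and 279 at least 2-fold lower (2.17%), and 44 (0.342%) and 50 (0.388%) genes passed 4-fold. The 2 libraries of a group did not overlap those of the other in 9450 genes (73.4%), so lack of overlap was common here. Lack of overlap was also required of the genes named below as largest rises and falls, and it adds no support for them. For list members, which were named by their calls and values, it likewise adds no support beyond the call. Without DMSO replicate 2 the number of lower genes was 1692, and without afatinib replicate 2 it was 1749.

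**Figure D1:**
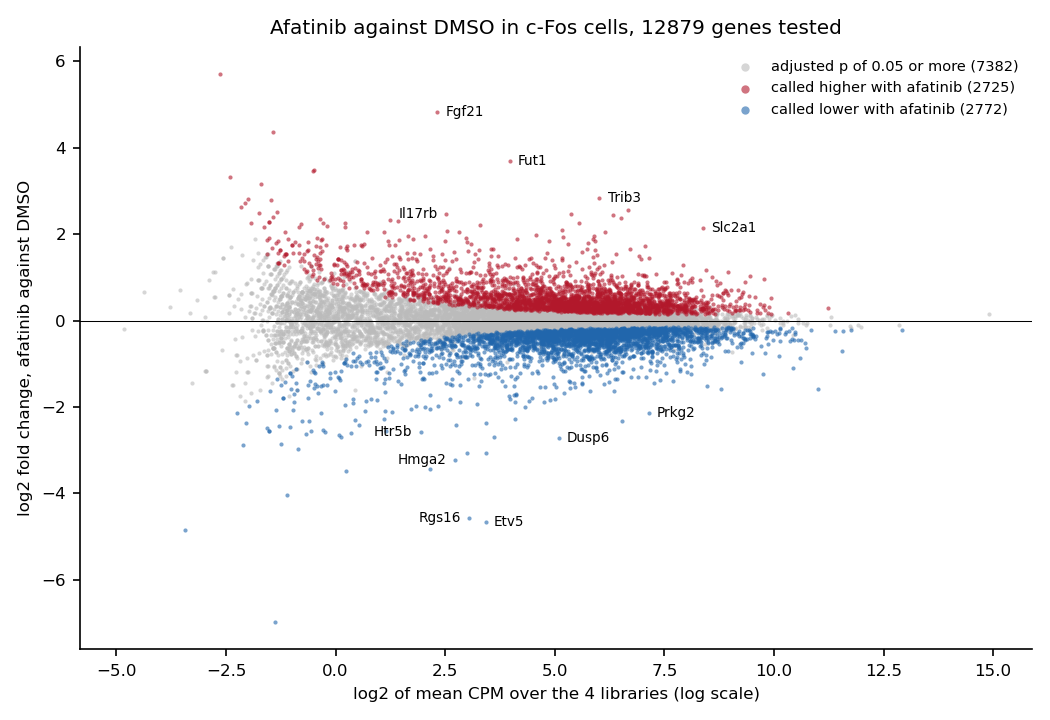
Each point is 1 of the 12879 genes tested, with the log2 of its mean CPM over the 4 libraries on the x axis and its log2 fold change with afatinib against DMSO on the y axis. Red points are the 2725 genes called higher and blue points the 2772 called lower, with Fgf21 (4.82) and Etv5 (-4.67) among the labelled extremes.

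The share of calls depended on gene length, and the libraries of a group differed along the same axis. Of the shortest quartile of genes (up to 1795 bases) 9.07% were higher and 27.7% lower, and of the longest quartile (from 4354 bases) 33.6% were higher and 14.0% lower. The median change ran from -0.13 in the shortest to 0.13 in the longest quartile. The ratio of replicate 2 to replicate 1 had medians of -0.07 and 0.05 in these quartiles with afatinib, and of 0.05 and -0.07 with DMSO. Each of the 4 ratios of an afatinib to a DMSO library had a median between -0.18 and -0.07 in the shortest and between 0.07 and 0.19 in the longest quartile. A fit with the length trend of each library removed, chosen after the data were seen, called 2635 genes higher and 2740 lower. Of these, 2345 and 2349 were also called without the correction, and counts that it moved by over 1.5 times are given with their list.

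**Figure D2:**
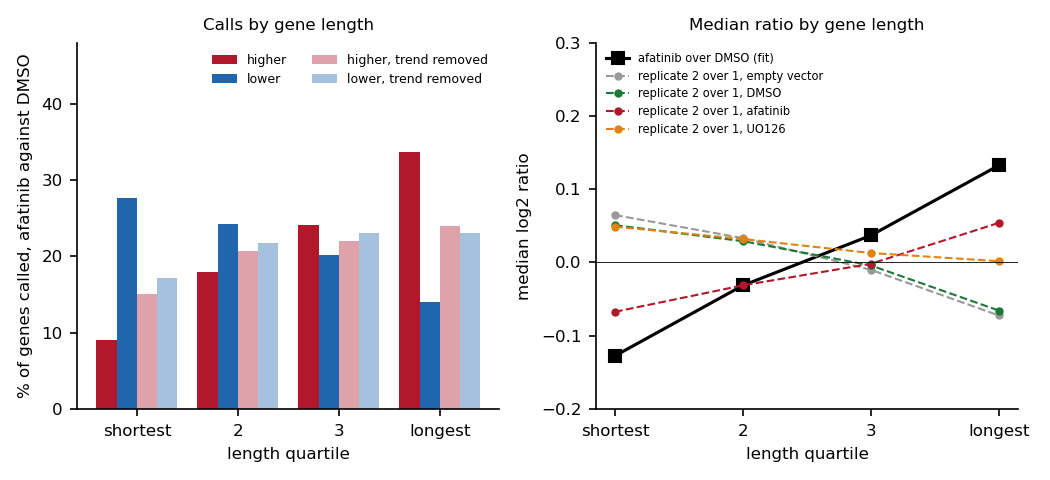
Genes are split into quartiles by length. The left plot gives the percentage called higher or lower with afatinib, in full colour for the fit as described and pale with the length trend removed, and the right plot gives the median log2 ratio of afatinib to DMSO beside that of replicate 2 to replicate 1 in each group. The share of higher genes rises from 9.07% to 33.6% with length, and with the trend removed it runs from 15.1% to 24.0%.

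Messages of the 3 EGFR family receptors tested rose, and those of 6 of their 10 ligands fell. Erbb3, a receptor with little kinase activity that signals through its partners, had 43.8 and 41.8 CPM with DMSO and 92.02 and 93.6 CPM with afatinib (log2 fold change 1.12 ± 0.099, adjusted p = 2.2e-06). Egfr had 81.6 and 67.96 CPM with DMSO and 95.4 and 107 CPM with afatinib (log2 fold change 0.44 ± 0.095, adjusted p = 0.0026). The libraries of both genes did not overlap, and all afatinib values were the higher ones. Erbb2 rose by 0.27, but its call was lost without DMSO replicate 2 (adjusted p = 0.11) and with the length trend removed (adjusted p = 0.078). Erbb4 had at most 1 count in any library and was not tested. Fos, the induced gene, had 1163 and 1120.5 CPM with DMSO and 1107 and 1081 CPM with afatinib and did not pass the test (log2 fold change -0.06 ± 0.080, adjusted p = 0.57). With the empty vector it had 40.6 and 50.5 CPM. The counts do not separate the vector's Fos from the cells' own, so a change in the latter could go unseen.

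Of 10 ligand genes tested, 6 were lower and 0 higher, with a median of -0.89 against -0.00 over all genes. Areg (amphiregulin) had 6.97 and 9.03 CPM with DMSO and 1.85 and 2.200 CPM with afatinib (log2 fold change -1.97 ± 0.22, adjusted p = 1.1e-05). Nrg1 (neuregulin, a ligand of ERBB3 and ERBB4) had 48.6 and 43.8 CPM with DMSO and 15.7 and 17.8 CPM with afatinib (log2 fold change -1.46 ± 0.099, adjusted p = 1.2e-07). In both genes each afatinib library was below each DMSO library by more than the gap between replicates. Ereg, Epgn, Hbegf and Tgfa, which encode epiregulin, epigen and 2 further EGFR ligands, fell by 1.25, 1.02, 0.96 and 0.83. Btc stood at -0.59 (adjusted p = 0.11, and 0.045 with only the 4 libraries compared). It and Nrg2, Nrg4 and Egf did not pass the test. Among the 11 receptor brakes, 3 were higher and 1 lower: Lrig2, Rnf41 and Socs4 rose by 0.69, 0.48 and 0.41, and Socs5 fell by 0.36. Errfi1, which encodes the feedback inhibitor MIG6, stood at -0.05 and did not pass the test. The call of Socs4 was lost without DMSO replicate 2 (adjusted p = 0.11) or afatinib replicate 2 (adjusted p = 0.088).

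Other receptor tyrosine kinases moved in both directions, 7 higher and 4 lower of 16. Fgfr2 and Fgfr3, receptors for fibroblast growth factors, rose by 0.94 and 0.93, and Insr, the insulin receptor, rose by 0.70. Epha2, an ephrin receptor, had 325 and 319.8 CPM with DMSO and 145 and 141 CPM with afatinib (log2 fold change -1.17 ± 0.060, adjusted p = 1.1e-08). Its libraries lay close together within each treatment and far apart between them. Axl and Fgfr1 fell by 0.37 and 0.40. Among 11 adaptors and exchange factors, 4 were higher and 2 lower, with Irs2 at 0.77 and Irs1 at -0.60, both substrates of the insulin receptor. Without DMSO replicate 2, without afatinib replicate 2 or with the length trend removed, 2 adaptors were higher. The cascade itself moved little: of 16 genes from Hras to the ribosomal S6 kinases, 3 were higher and 1 lower, with a median of -0.05 (2 lower without afatinib replicate 1 or UO126 replicate 2, with only the 4 libraries compared or with the length trend removed). Map2k1 and Map2k2, which encode MEK1 and MEK2, stood at 0.03 and -0.05, and neither passed the test.

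Feedback genes of ERK held some of the largest falls. Of 11 genes in the Sprouty, Spred and PEA3 list, 8 were lower and 0 higher, with a median of -1.18. Etv5, an ETS transcription factor of the PEA3 group, had 20.8 and 20.5 CPM with DMSO and 0.779 and 0.825 CPM with afatinib (log2 fold change -4.67 ± 0.16, adjusted p = 3.9e-10). Both afatinib libraries were far below both DMSO libraries, with little spread within a treatment. Spry4, a Sprouty inhibitor of RAS signalling, had 13 and 18 deposited counts with DMSO against 0 and 2.5 with afatinib, a low count on which its fitted change of -4.03 ± 0.71 rests. Spry1, Etv4 and Spred1 fell by 1.82, 1.54 and 1.18. Il17rd, Spred3 and Trib1 did not pass the test.

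The phosphatases of MAP kinases split evenly, 5 higher and 5 lower of 10 tested. Dusp6, the phosphatase most selective for ERK, had 55.7 and 62.2 CPM with DMSO and 8.91 and 8.89 CPM with afatinib (log2 fold change -2.73 ± 0.096, adjusted p = 4.9e-10). Dusp4 and Dusp9 fell by 1.48 and 1.44. Dusp1, which acts on p38 and JNK as well as ERK, went the other way, with 19.2 and 20.1 CPM with DMSO and 56.1 and 48.3 CPM with afatinib (log2 fold change 1.41 ± 0.097, adjusted p = 1.4e-07). Dusp10 and Dusp16, which act on the stress kinases p38 and JNK, rose by 0.92 and 0.72. No overlap was seen between treatments in Dusp6 or Dusp1. In the 250 bases before their start, none of the 8 MAP kinase phosphatases and none of the 7 Sprouty, Spred and PEA3 genes with a RefSeq promoter held CCGGAAG, an ETS core found in 15.8% of the 9954 tested genes with a promoter, or TGANTCA, an AP-1 core found in 5.71%, on either strand. This says only that these letters are not in that window. Over all genes, the 1576 with the ETS letters were called lower in 28.7% and higher in 14.8%. The 568 with the AP-1 letters were called lower in 21.0% and higher in 24.8%, beside 21.9% and 21.1% of all genes with a promoter. At least 2-fold, genes with the ETS letters were lower in 0.761% and higher in 0.888%. Those with the AP-1 letters were lower in 4.58% and higher in 4.4%, beside 1.94% and 2.55% of all genes with a promoter.

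**Figure D3:**
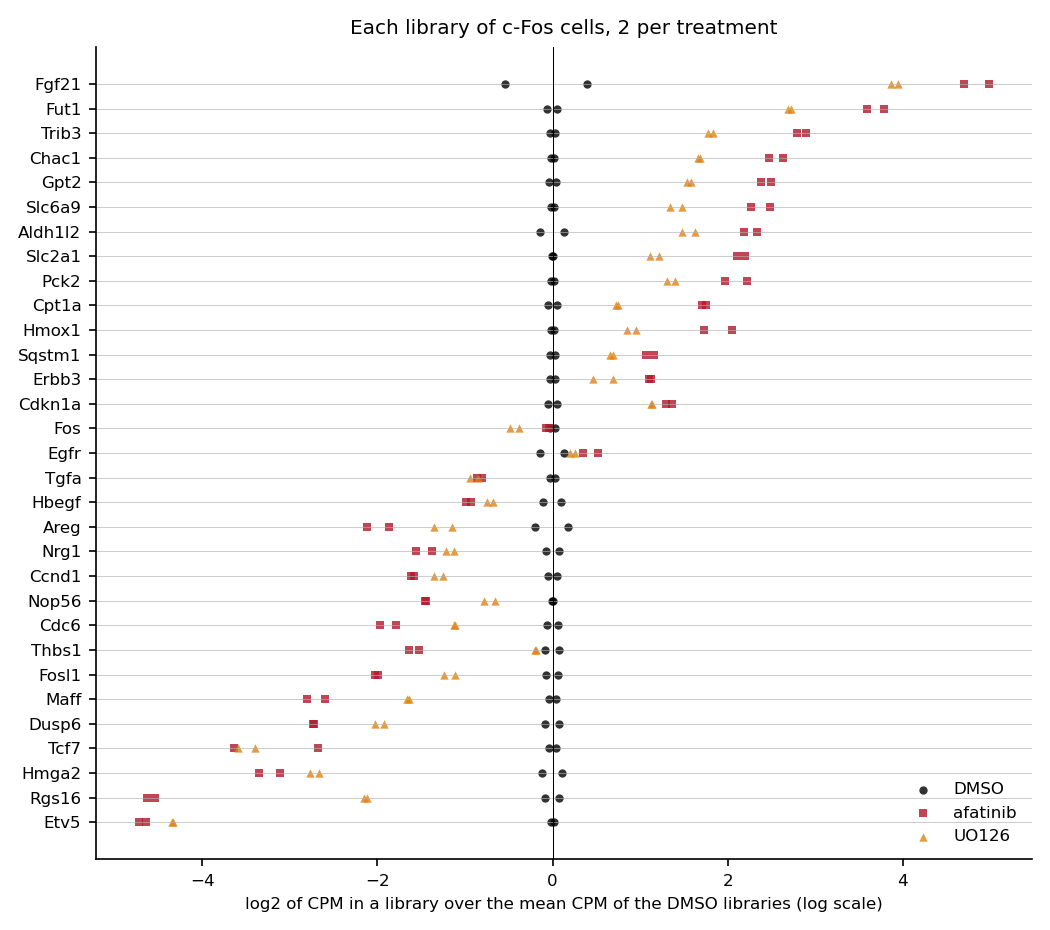
For 31 genes the points give the log2 of the CPM in each library over the mean CPM of the DMSO libraries: circles for DMSO, squares for afatinib and triangles for UO126, 2 libraries each. Afatinib libraries of Etv5 lie near -4.67 and those of Fgf21 near 4.82, and Fos libraries with afatinib lie at the DMSO level.

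Genes of the AP-1 family, the FOS and JUN proteins and their relatives, changed in both directions, 4 higher and 3 lower of 10. Fosl1, a FOS relative that ERK stabilizes, had 30.6 and 33.6 CPM with DMSO and 8.08 and 7.88 CPM with afatinib (log2 fold change -2.01 ± 0.10, adjusted p = 9.5e-09). Fosb and Junb fell by 0.76 and 0.44. Atf3, Jdp2, Fosl2 and Jund rose by 1.33, 1.09, 0.95 and 0.70. Jun stood at 0.06 and did not pass the test. The call of Fosb was lost without DMSO replicate 2 (adjusted p = 0.055). Of 18 immediate-early genes outside AP-1, 5 were higher and 7 lower. Maff, a small MAF protein without a transactivation domain, had 21.7 and 20.6 CPM with DMSO and 3.51 and 3.03 CPM with afatinib (log2 fold change -2.70 ± 0.12, adjusted p = 4.3e-09). Nr4a1, Ier3 and Ier2 fell by 1.10, 1.02 and 0.71, while Klf2 and Zfp36, which encodes an mRNA decay factor, rose by 0.74 and 0.73. Egr1, a classical ERK target, stood at 0.35 (adjusted p = 0.083) and was called higher by the DESeq2 Wald test (adjusted p = 0.029), without either UO126 library, with only the 4 libraries compared or with no filter on low counts. Without DMSO replicate 2 the lower count of this list was 4, without afatinib replicate 1 the higher count was 3, and without UO126 replicate 1 it was 8.

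Genes of the actin cytoskeleton and of YAP leaned lower. Actb and Actg1, the cytoplasmic actins, fell by 0.70 and 0.79, although reads can be shared between these copies. In the list of 16 SRF and actin genes 6 were lower and 2 higher (3 lower without afatinib replicate 2, 1 higher without DMSO replicate 2), and Filip1l, which encodes a filamin-interacting protein, rose by 1.06. Of 13 YAP targets, 6 were lower and 3 higher. Ctgf, a matricellular growth factor, had 33.6 and 33.5 CPM with DMSO and 9.35 and 9.08 CPM with afatinib (log2 fold change -1.87 ± 0.087, adjusted p = 5.1e-09). Cyr61, a related gene, had 239 and 245 CPM with DMSO and 116 and 121 CPM with afatinib (log2 fold change -1.03 ± 0.062, adjusted p = 4.2e-08). The afatinib values of both were the lower ones with no overlap. Ptpn14 and Wwc1, which encode inhibitors of YAP, rose by 0.71 and 0.47. The lower count of YAP targets was 2 without DMSO replicate 1 or afatinib replicate 2, and 3 without afatinib replicate 1 or by the DESeq2 Wald test.

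Genes that carry cells from G1 into S phase were lower. Ccnd1, cyclin D1, had 643 and 687 CPM with DMSO and 223 and 217 CPM with afatinib (log2 fold change -1.60 ± 0.063, adjusted p = 1.2e-09). Ccnd2, Cdk6, Ccne2 and Ccne1 fell by 1.01, 0.85, 0.77 and 0.67. Cdkn1a, which encodes the CDK inhibitor p21, had 35.4 and 32.8 CPM with DMSO and 87.5 and 83.8 CPM with afatinib (log2 fold change 1.33 ± 0.071, adjusted p = 1.6e-08), and Cdkn1b (p27) rose by 0.61. Cyclins and CDKs were thus the lower members and CDK inhibitors the higher ones: 7 lower and 5 higher of 13. The call of Ccne2 was lost without DMSO replicate 2 or afatinib replicate 1 (adjusted p = 0.074 and 0.059), and that of Cdkn1b without DMSO replicate 1 (adjusted p = 0.051). The higher count was 3 without either DMSO library or by the DESeq2 Wald test.

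DNA replication genes fell together, 30 lower and 1 higher of 36, with a median of -0.57 (29 lower with the length trend removed). Cdc6, which loads the MCM helicase at origins, had 44.5 and 40.9 CPM with DMSO and 12.4 and 10.9 CPM with afatinib (log2 fold change -1.88 ± 0.094, adjusted p = 9.2e-09). Cdt1, its partner in loading, had 114 and 106 CPM with DMSO and 42.7 and 39.7 CPM with afatinib (log2 fold change -1.42 ± 0.079, adjusted p = 2.1e-08). Each afatinib library held less than each DMSO library in both genes. Uhrf1, which guides maintenance methylation, and Orc1, a subunit of the origin recognition complex, fell by 1.14 and 1.07. All 6 subunits of the MCM2-7 helicase were lower, from Mcm6 (-0.49) to Mcm3 (-0.94). E2f2, which encodes an activating E2F factor, was the 1 higher member at 0.53. Of 24 mitotic genes 13 were not called, 8 were higher and 3 lower, with a median of 0.01, and Cenpf and Kif11 rose by 0.59 and 0.54. The mitotic counts were 5 higher without DMSO replicate 2, 0 lower without DMSO replicate 2 or either afatinib library, and 1 lower without empty vector replicate 2.

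The sequences below show the letters that the factor E2F is known to bind, in promoters of 4 replication genes that fell. The letters searched were TTTGGCGC, TTTCCCGC and TTTCGCGC on both strands in the 250 bases before a RefSeq start (GRCm38.p6). They were found in 9 of the 29 replication genes with a promoter (31.0%) and in 3.49% of the 9954 tested genes with one. Genes with these letters were called lower in 32.3% and higher in 13.8% of 347 cases, beside 21.9% and 21.1% of all genes with a promoter. Capitals mark each match in the window, which is a description of letters and not a site of binding.
Cdc6 (chr11:98907987-98908046, + strand): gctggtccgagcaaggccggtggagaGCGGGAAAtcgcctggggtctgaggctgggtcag
Orc1 (chr4:108579401-108579453, + strand): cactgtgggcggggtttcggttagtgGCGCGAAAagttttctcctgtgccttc
Uhrf1 (chr17:56304102-56304161, + strand): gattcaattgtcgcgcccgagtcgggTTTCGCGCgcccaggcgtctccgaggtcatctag
Mcm6 (chr1:128359782-128359841, - strand): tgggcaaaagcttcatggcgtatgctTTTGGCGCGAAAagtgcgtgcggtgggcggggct

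Nearly every gene of ribosome biogenesis fell. In the list of Myc and its ribosome biogenesis genes 27 of 28 were lower and 0 higher, with a median of -0.88 and all 28 lower with the length trend removed. Nop56, a core protein of box C/D particles that guide methylation of ribosomal RNA, had 225 and 226 CPM with DMSO and 81.99 and 83.1 CPM with afatinib (log2 fold change -1.45 ± 0.064, adjusted p = 3.4e-09). Dkc1, which encodes the pseudouridine synthase dyskerin, had 111 and 126 CPM with DMSO and 47.03 and 46.2 CPM with afatinib (log2 fold change -1.35 ± 0.081, adjusted p = 4.2e-08). In both genes the gap between treatments was several times the gap between replicates. Polr1b, a subunit of RNA polymerase I, Nolc1 and Nop2 fell by 1.21, 1.20 and 1.18. Srm and Odc1, enzymes of polyamine synthesis, fell by 1.08 and 0.67. Myc itself fell less, by 0.40 (adjusted p = 0.0011), and Utp20 did not pass the test.

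Large rises lay among targets of ATF4, the transcription factor of the integrated stress response, which is translated when the initiation factor eIF2 is phosphorylated. Of 17 ATF4 regulators and effectors, 15 were higher and 1 lower, with a median of 0.99. Fgf21, a secreted metabolic hormone, had 0.435 and 0.227 CPM with DMSO and 10.5 and 8.62 CPM with afatinib (log2 fold change 4.82 ± 0.27, adjusted p = 2.1e-08), from 8 and 3.5 deposited counts with DMSO. Trib3, a pseudokinase that restrains ATF4 and AKT, had 15.6 and 16.1 CPM with DMSO and 118 and 109 CPM with afatinib (log2 fold change 2.84 ± 0.079, adjusted p = 1.1e-10). Chac1, an enzyme that degrades glutathione, had 29.7 and 29.2 CPM with DMSO and 182 and 164 CPM with afatinib (log2 fold change 2.55 ± 0.074, adjusted p = 1.1e-10). The lowest afatinib value of each gene was several times its highest DMSO value. Sesn2, Vldlr and Atf5 rose by 1.90, 1.66 and 1.41, and Ddit3, which encodes CHOP, by 0.99. Atf4 itself changed less, with 413 and 421 CPM with DMSO and 544 and 515 CPM with afatinib (log2 fold change 0.34 ± 0.056, adjusted p = 2.8e-04). Among the kinases of eIF2, Eif2ak3 (PERK) rose by 0.64 and Eif2ak2 (PKR) by 0.31, Eif2ak1 stood at 0.16 (adjusted p = 0.053, and called in 7 of the alternative fits), and Eif2ak4 (GCN2) fell by 0.25. The call of Eif2ak2 was lost without either DMSO library or afatinib replicate 2. That of Eif2ak4 was lost in 5 fits that each left out 1 library, all but those without empty vector replicate 1 or a UO126 library, and by the DESeq2 Wald test.

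Amino acid genes rose in part. Of 17 genes of amino acid and one-carbon synthesis 11 were higher and 4 lower, with a median of 0.50. Gpt2, a mitochondrial alanine transaminase, had 25.7 and 24.4 CPM with DMSO and 142 and 131 CPM with afatinib (log2 fold change 2.44 ± 0.074, adjusted p = 1.1e-10). Aldh1l2 and Pck2, mitochondrial enzymes of folate and of phosphoenolpyruvate, rose by 2.26 and 2.10, and Asns, asparagine synthetase, by 0.87. Shmt1, the cytosolic serine hydroxymethyltransferase, fell by 0.96 while its mitochondrial counterpart Shmt2 rose by 0.50. The lower count was 2 without DMSO replicate 2 or either afatinib library. Of 11 transporters 7 were higher and 1 lower. Slc6a9, a glycine transporter, had 29.4 and 29.9 CPM with DMSO and 166 and 142 CPM with afatinib (log2 fold change 2.38 ± 0.086, adjusted p = 6.1e-10), and Slc7a11, the cystine carrier, rose by 1.47. Slc1a5, the 1 lower transporter, lost its call in the 6 fits without an empty-vector, DMSO or afatinib library and by the DESeq2 Wald test. Of 20 cytosolic tRNA synthetases 11 were higher and 6 lower: Aars (alanine) had 467 and 452 CPM with DMSO and 984 and 892 CPM with afatinib (log2 fold change 1.03 ± 0.063, adjusted p = 4.5e-08), whereas Rars (arginine) and Kars (lysine) fell by 0.56 and 0.50. The synthetases therefore split, with Cars, Gars and Nars also among the higher ones.

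Shown next are promoter letters of 8 of these rising genes, because they hold TGATGNAA, the core of the composite element that ATF4 and C/EBP factors are known to bind. The letters were found on either strand in 4 of 17 ATF4 regulators and effectors (23.5%), 4 of 14 amino acid synthesis genes, 1 of 7 transporters and 3 of 12 synthetases with a promoter, and in 2.36% of the 9954 tested genes with a promoter. Of the 235 genes with these letters 31.1% were called higher and 17.4% lower, beside 21.1% and 21.9% of all genes with a promoter. The genes below, picked because they rose, were among the 235. Capitals mark each match in the RefSeq sequence (GRCm38.p6), which reads TTGCATCA or a relative of it where the element lies on the opposite strand.
Fgf21 (chr7:45615596-45615655, - strand): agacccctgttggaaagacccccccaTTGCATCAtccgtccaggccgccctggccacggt
Chac1 (chr2:119351023-119351082, + strand): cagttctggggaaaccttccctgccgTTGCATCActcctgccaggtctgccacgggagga
Vldlr (chr19:27216794-27216853, + strand): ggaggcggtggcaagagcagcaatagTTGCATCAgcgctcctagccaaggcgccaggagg
Nupr1 (chr7:126625547-126625606, - strand): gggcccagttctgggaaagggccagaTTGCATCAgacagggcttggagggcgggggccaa
Asns (chr6:7693210-7693258, - strand): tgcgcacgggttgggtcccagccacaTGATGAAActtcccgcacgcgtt
Pck2 (chr14:55540137-55540196, + strand): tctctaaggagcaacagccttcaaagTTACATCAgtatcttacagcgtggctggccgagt
Slc7a11 (chr3:50443646-50443705, - strand): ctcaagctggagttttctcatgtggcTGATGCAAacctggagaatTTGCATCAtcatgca
Aars (chr8:111033704-111033763, + strand): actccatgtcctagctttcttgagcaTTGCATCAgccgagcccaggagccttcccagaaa

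Genes of nutrient sensing, lysosomes and autophagy leaned higher. TFEB and TFE3 are transcription factors of lysosomal genes that the kinase mTORC1 holds in the cytoplasm, with folliculin and the Rag GTPases as partners. Of 9 genes of these factors and partners, 8 were higher and 0 lower (1 lower without UO126 replicate 2), with a median of 0.53. The list also counted Ppargc1a, a coactivator of mitochondrial genes that is outside these factors and partners, and its rise was the largest. Ppargc1a had 10.01 and 9.15 CPM with DMSO and 37.5 and 38.6 CPM with afatinib (log2 fold change 1.99 ± 0.12, adjusted p = 6.3e-08). Flcn and Fnip1, which encode folliculin and its partner, rose by 0.97 and 1.02, and Rragd by 0.80. Of 25 lysosomal genes 14 were higher and 1 lower, most by little, with a median of 0.25. Gpnmb, a lysosomal membrane glycoprotein, had 3.701 and 3.296 CPM with DMSO and 11.3 and 13.3 CPM with afatinib (log2 fold change 1.82 ± 0.17, adjusted p = 2.8e-06). Gla, Npc1 and Lamp2 rose by 0.76, 0.52 and 0.50. The call of Lamp2 was lost without either DMSO library (adjusted p = 0.12 and 0.073) or afatinib replicate 2 (adjusted p = 0.092), and the lower member, Ctsz, lost its call in the fits without any 1 of the empty-vector, DMSO or afatinib libraries, by the DESeq2 Wald test, with no filter on low counts and with the length trend removed, where 17 were higher and 0 lower. The CLEAR letters TCACGTGA, known as the element of these factors, were found on either strand in 5 of 19 lysosomal promoters (26.3%), in 0 of 9 and 0 of 20 promoters of the nutrient-sensing and autophagy genes, and in 1.76% of all. Of the 175 genes with these letters 24.0% were called higher and 17.7% lower, near the 21.1% and 21.9% of all genes with a promoter.
Gla (chrX:134601200-134601255, - strand): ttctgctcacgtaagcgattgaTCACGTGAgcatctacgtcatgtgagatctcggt
Mcoln1 (chr8:3500447-3500506, + strand): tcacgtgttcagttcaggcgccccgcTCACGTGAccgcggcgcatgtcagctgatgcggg

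Of 23 autophagy genes 13 were higher and 2 lower, with a median of 0.23, and 8 were higher without afatinib replicate 1. Sqstm1, the cargo receptor p62, had 317 and 304 CPM with DMSO and 696 and 652 CPM with afatinib (log2 fold change 1.12 ± 0.059, adjusted p = 1.6e-08). Ulk1, the starter kinase, Calcoco1 and Map1lc3b rose by 0.73, 0.77 and 0.66. Wipi1 and Atg16l1 fell by 0.40 and 0.27, and the call of Atg16l1 was lost without any 1 of the DMSO or afatinib libraries and by the DESeq2 Wald test. The antioxidant genes of NRF2 were higher in 15 of 22 and lower in 0, with a median of 0.31, and 2 were lower with the length trend removed or without UO126 replicate 2. Hmox1, heme oxygenase, had 24.7 and 25.2 CPM with DMSO and 103 and 82.6 CPM with afatinib (log2 fold change 1.89 ± 0.11, adjusted p = 3.8e-08). Srxn1 and Gclc, which act in redox repair and glutathione synthesis, rose by 0.81 and 0.77. FOXO factors, which AKT keeps out of the nucleus, and their targets were higher in 8 of 15 and lower in 1, with a median of 0.32: Gadd45a, Ccng2 and Sesn3 rose by 1.45, 1.09 and 0.97, and Foxo1 fell by 0.52.

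Genes of fuel use changed at single steps. Slc2a1, the glucose transporter GLUT1, had 123 and 123 CPM with DMSO and 562 and 529 CPM with afatinib (log2 fold change 2.15 ± 0.064, adjusted p = 1.1e-10). Hk2, the hexokinase of the next step, had 71.8 and 68.6 CPM with DMSO and 30.7 and 31.5 CPM with afatinib (log2 fold change -1.17 ± 0.069, adjusted p = 3.2e-08). Afatinib values of Slc2a1 were the higher ones and those of Hk2 the lower ones, with no overlap. Of 19 glycolysis genes 2 were higher and 8 lower, among them Slc16a1, a lactate carrier, at -0.72 and Eno1, enolase, at -0.57 (4 lower without DMSO replicate 2, 3 without afatinib replicate 2). Cpt1a, which admits fatty acids to mitochondria, had 63.3 and 59.3 CPM with DMSO and 201 and 206 CPM with afatinib (log2 fold change 1.73 ± 0.070, adjusted p = 1.4e-09). In the list of fatty acid oxidation 7 of 12 were higher and 1 lower, with 4 higher without DMSO replicate 1 or afatinib replicate 1. Ppargc1b fell by 1.46.

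Nuclear genes of the respiratory chain were nearly level, 4 lower and 0 higher of 37, and none of the 4 lower calls was kept without DMSO replicate 2, without afatinib replicate 2 or with the length trend removed, which called 2 higher. The lower count was 2 without afatinib replicate 1 and 7 without UO126 replicate 2 or with only the 4 libraries compared. Proteasome subunits were lower in 15 of 31 and higher in 0, by at most 0.38 (-0.38 for Psmc5), with a median of -0.17. Their median length was 1423 bases, and 27 of the 31 lay in the shortest quartile of genes, whose median was -0.13. The proteasome count was 2 without DMSO replicate 2, 9 without afatinib replicate 1, 3 without afatinib replicate 2, and 7 lower with 1 higher once the length trend was removed. Heat shock chaperones were higher in 2 and lower in 4 of 14: Hspb8 rose by 0.90 and Hspa8, the constitutive HSP70, fell by 0.66. Their higher count was 4 without a UO126 library, with only the 4 libraries compared or with the length trend removed.

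Sterol synthesis genes were lower in 10 of 22 and higher in 0, with a median of -0.20. Mvd, a mevalonate pathway enzyme, had 68.96 and 73.2 CPM with DMSO and 46.2 and 44.1 CPM with afatinib (log2 fold change -0.66 ± 0.069, adjusted p = 6.0e-06). Cyp51, which demethylates lanosterol, had 669.6 and 715 CPM with DMSO and 452 and 454 CPM with afatinib (log2 fold change -0.61 ± 0.069, adjusted p = 1.2e-05). Both genes were lower in each afatinib library than in each DMSO library. Srebf2, the main sterol factor, stood at 0.00 and did not pass the test. The letters TCACNCCAC, searched for this list, were found in 0 of its 15 promoters and in 1.24% of all. The 123 genes with them were called higher in 35.0% and lower in 13.0%, beside 21.1% and 21.9% of all genes with a promoter. Hmgcs1 had 0 counts in all 8 libraries, which does not show that it was absent. Without DMSO replicate 2 the lower count was 6. Fatty acid synthesis had 5 lower and 2 higher of 13, led by Elovl6 (-0.47) and Fasn (-0.45), with 3 lower without either DMSO library, afatinib replicate 2 or empty vector replicate 2, 1 higher without DMSO replicate 1, and 8 lower with the length trend removed. Among 22 endoplasmic reticulum genes 8 were lower and 6 higher: the chaperone genes Sdf2l1, Manf and Hspa5 fell by 0.50, 0.44 and 0.25, and Herpud1 and Ern1 (the sensor IRE1) rose by 0.88 and 0.62. The call of Hspa5 was lost without afatinib replicate 2 (adjusted p = 0.055). Those counts were 4 lower without DMSO replicate 2 and 3 of each without afatinib replicate 2.

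In the epithelial programme, differentiation genes did not move as a group. Of 19 squamous genes tested, 6 were higher and 3 lower with a median of 0.20, and 7 of the other 8 listed had at most 5 counts in any library. Sprr1a, a cornified envelope precursor with close copies, rose by 0.69 and Ppl (periplakin) by 0.39, while Evpl (envoplakin) fell by 0.60. At least 2-fold, 2 squamous members not named here were called higher and 1 member was called lower. Ivl, the envelope protein involucrin, had 11 and 9.5 deposited counts with DMSO and 3 and 1 with afatinib, and its call was lost without afatinib replicate 2 (adjusted p = 0.077). The counts were 3 higher and 1 lower without afatinib replicate 2, 1 lower by the DESeq2 Wald test, and 3 higher where at least 5 CPM in 2 libraries were required. Among 9 keratins 2 were higher and 3 lower: Krt80 and Krt16 rose by 1.00 and 0.61, Krt6a and Krt17, wound keratins, each fell by 0.45, and Krt5 fell by 0.23. The call of Krt5 was lost without DMSO replicate 2 (adjusted p = 0.087) or afatinib replicate 2 (adjusted p = 0.068). Reads shared between keratin copies leave the values of Krt6a, Krt16 and Krt17 uncertain. Junction genes were higher in 9 of 18 and lower in 3. Dsc3 and Dsg3, desmosomal cadherins, rose by 0.91 and 0.68, whereas Dsp (desmoplakin) and Cldn1 (a tight junction claudin) fell by 0.43 and 0.90.

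Adhesion to the basement membrane was mixed, with 5 higher and 6 lower of 18, and 3 higher without DMSO replicate 2. The hemidesmosome genes Plec (plectin), Itgb4 and Col17a1 fell by 0.83, 0.64 and 0.24, and Itga2, a collagen receptor subunit, rose by 0.87. The call of Col17a1 was lost without DMSO replicate 1 or either afatinib library. Of 8 mesenchymal genes 4 were lower and 0 higher. Hmga2, an architectural chromatin protein, had 10.99 and 12.8 CPM with DMSO and 1.17 and 1.38 CPM with afatinib (log2 fold change -3.22 ± 0.19, adjusted p = 3.3e-08). Vim, vimentin, had 80.6 and 78.9 CPM with DMSO and 38.5 and 37.04 CPM with afatinib (log2 fold change -1.08 ± 0.070, adjusted p = 7.7e-08). Both afatinib libraries were the lower ones in each case, and the list held 2 lower genes without DMSO replicate 2 or afatinib replicate 1, when the calls of Twist1 and Snai2 were lost. Snai2 lost its call in all 6 fits without an empty-vector, DMSO or afatinib library and with the length trend removed. Proteases and their inhibitors split 5 and 5 of 15. Mmp3, Mmp13 and Mmp10, which cleave matrix, rose by 1.58, 1.505 and 1.28. Serpinb2, an inhibitor of urokinase, had 18.1 and 18.2 CPM with DMSO and 3.26 and 3.67 CPM with afatinib (log2 fold change -2.38 ± 0.16, adjusted p = 9.4e-08), and Plaur, the urokinase receptor, fell by 0.85.

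Developmental pathways gave small sets of changes, beside 21.2% higher and 21.5% lower over all genes. Hedgehog signalling, the driver of basal cell carcinoma, had 6 of 9 genes higher and 0 lower, with a median of 0.40. Of these 9 genes 6 lay in the longest quartile, of which 33.6% were higher and 14.0% lower. Gli1, the effector and target of the pathway, had 7.51 and 7.500 CPM with DMSO and 13.4 and 14.4 CPM with afatinib (log2 fold change 0.89 ± 0.12, adjusted p = 4.2e-05). Cdon, a co-receptor, had 81.4 and 73.7 CPM with DMSO and 156 and 169 CPM with afatinib (log2 fold change 1.07 ± 0.073, adjusted p = 1.4e-07). No overlap was seen in either gene, but Ptch1, the other target (0.40), lost its call without DMSO replicate 2 or afatinib replicate 2 and with the length trend removed (adjusted p = 0.17, 0.26 and 0.098), a fit that called 4 higher and 1 lower. Wnt genes were higher in 3 and lower in 2 of 10. Tcf7, a transcription factor of the Wnt pathway, had 19.9 and 18.9 CPM with DMSO and 1.56 and 3.03 CPM with afatinib (log2 fold change -3.07 ± 0.19, adjusted p = 6.9e-08). Lgr6 fell by 2.05 and Lgr4, a related receptor of R-spondins, rose by 0.90. Notch genes were higher in 3 and lower in 4 of 12, with Jag1, a ligand, at -0.79 and Dll1, another, at 1.02 (2 lower without either DMSO library). BMP and TGF-beta feedback genes were higher in 4 and lower in 6 of 16, with Id4, Tgfb1 and Id1 falling by 0.98, 0.89 and 0.83 and Smad6 rising by 0.95.

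Among genes of cell death, 6 of 13 in the BCL2 family were higher and 5 lower. At least 2-fold, 1 member not named here was called higher and 2 members were called lower. Bcl2, an inhibitor of apoptosis, had 27.3 and 26.02 CPM with DMSO and 7.304 and 8.89 CPM with afatinib (log2 fold change -1.72 ± 0.11, adjusted p = 6.1e-08). Bcl2l1, which also inhibits it, fell by 0.53, and Mcl1 fell by 0.20, a call lost without any 1 of the DMSO or afatinib libraries or empty vector replicate 2. Pmaip1 (NOXA) and Bcl2l11 (BIM), which promote apoptosis, rose by 0.83 and 0.48, while Bid, which promotes it as well, fell by 1.04. The call of Bcl2l11 was lost without DMSO replicate 2 or afatinib replicate 2, with the length trend removed and by the DESeq2 Wald test. The higher count was 3 without DMSO replicate 2 or afatinib replicate 2 and 2 by the DESeq2 Wald test. Targets of p53 were higher in 4 and lower in 2 of 14 (2 higher without DMSO replicate 1), with Mdm2, its ubiquitin ligase, at 0.62 and Aen at -1.04. Over all genes 21.2% were higher and 21.5% lower.

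Immune and clock genes completed the lists, again beside 21.2% higher and 21.5% lower over all genes. Interferon and MHC class I genes were higher in 7 and lower in 3 of 22, with Stat2 at 0.75 and Irf1 at -0.68 (1 lower without DMSO replicate 2, without either afatinib library or by the DESeq2 Wald test). Cytokines and growth factors were higher in 3 and lower in 6 of 19: Vegfa, the vascular growth factor, rose by 1.28 and Tnfaip3, a brake on NF-kappaB, fell by 1.21. Of 14 clock genes 6 were higher and 3 lower, and Per2, a repressor of the clock, had 9.47 and 8.52 CPM with DMSO and 3.21 and 3.300 CPM with afatinib (log2 fold change -1.46 ± 0.14, adjusted p = 2.6e-06). Of 4 targets of the aryl hydrocarbon receptor 1 was lower, Cyp1b1 at -0.41, and 2 were lower without a UO126 library, with only the 4 libraries compared, with no filter on low counts or with the length trend removed.

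**Figure D4:**
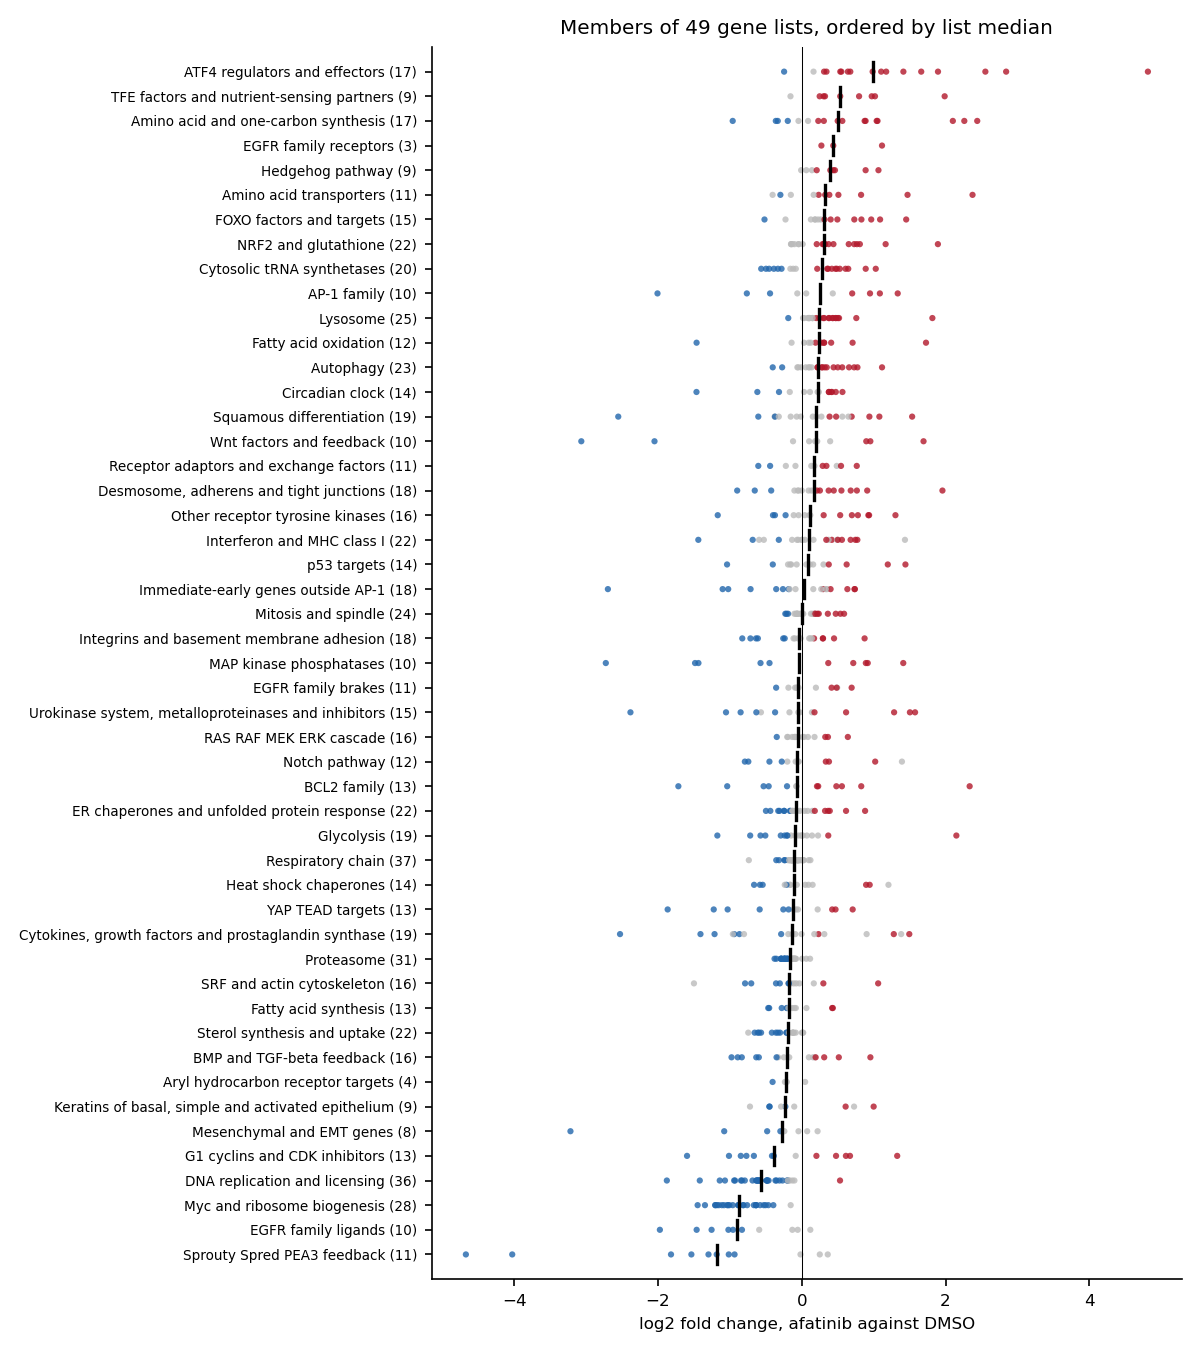
Each point is a member of 1 of 49 gene lists, placed by its log2 fold change with afatinib against DMSO, red or blue where called higher or lower and grey where not, with the list median as a black bar and the number of members tested in brackets. Medians run from -1.18 for the Sprouty, Spred and PEA3 list to 0.99 for the ATF4 regulators and effectors.

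Several of the largest changes belonged to no list. Fut1, a fucosyltransferase that builds the H antigen, had 2.34 and 2.16 CPM with DMSO and 31.02 and 27.1 CPM with afatinib (log2 fold change 3.69 ± 0.15, adjusted p = 1.6e-09). Rgs16, which ends signalling of G proteins, had 14.97 and 16.7 CPM with DMSO and 0.682 and 0.642 CPM with afatinib (log2 fold change -4.57 ± 0.18, adjusted p = 1.2e-09). Prkg2, a cGMP-dependent kinase, had 214 and 247 CPM with DMSO and 52.9 and 51.98 CPM with afatinib (log2 fold change -2.13 ± 0.11, adjusted p = 1.7e-07). As the rule that named these genes required, Fut1 was higher and the other 2 genes were lower in each afatinib library than in each DMSO library. Further rises were Fam180a (2.47), Il17rb, an interleukin receptor (2.47), Acot2, a mitochondrial thioesterase (2.21), Krtap1-5, a hair keratin-associated protein (2.07), Klf12 (2.06) and Chdh, choline dehydrogenase (2.06). Further falls were Serpinb10 (-3.07), Htr5b, a serotonin receptor (-2.59), Trib2, a pseudokinase (-2.42), Sertad4 (-2.32), Nav3 (-2.28) and Plpp3, a lipid phosphatase (-2.06).

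Where the response to afatinib differed from that to the MEK inhibitor was tested directly between the 2 inhibitor groups, which were treated at unlike concentrations. In this contrast 919 genes were higher with afatinib (7.14%) and 920 lower (7.14%), or 14.3% together, of which 26 (0.202% of all) and 50 (0.388%) were at least 2-fold apart. These counts were lower when either afatinib library was left out and higher when either UO126 library was. The UO126 duplicates lay furthest apart of all groups, with a chi-square per degree of freedom of 25.1 between the libraries. It was 9.17 for afatinib, 8.6 for DMSO and 4.85 for the empty vector. The part of this spread in the counts was not tested. Ribosome biogenesis genes were lower with afatinib than with UO126 in 22 of 28, with a median difference of -0.34 against -0.00 over all genes. DNA replication genes were lower in 12 of 36 and higher in 1. Sprouty, Spred and PEA3 genes differed in 1 of 11 and EGFR ligands in 0 of 10. Against DMSO, UO126 gave 27 lower and 0 higher of the 28 ribosome biogenesis genes, and 27 and 0 of the 36 replication genes. UO126 also gave 8 lower and 0 higher of the 11 feedback genes and 6 and 0 of the 10 ligands. Over all genes UO126 gave 14.7% lower and 13.9% higher. For Etv5 the UO126 libraries had 1.03 and 1.01 CPM and the afatinib libraries 0.779 and 0.825 CPM (log2 difference -0.34 ± 0.26, adjusted p = 0.52). That test does not show that the inhibitors acted alike on Etv5, since the interval is wide at this count.

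Sterol genes went separate ways under the 2 inhibitors. Of 22, 18 were lower with afatinib than with UO126 and 0 higher, with a median difference of -0.60. Against the same DMSO libraries, UO126 gave 15 higher and 0 lower where afatinib gave 10 lower and 0 higher (UO126 against DMSO: 13.9% of all genes higher, 14.7% lower). Mvd had 116 and 116 CPM with UO126, above the 68.96 and 73.2 CPM with DMSO and the 46.2 and 44.1 CPM with afatinib (afatinib against UO126 log2 difference -1.36 ± 0.067, adjusted p = 1.3e-07). Thbs1, which encodes the matrix protein thrombospondin 1, had 3253 and 2907 CPM with DMSO, 2712 and 2674 CPM with UO126 and 989 and 1071 CPM with afatinib (log2 difference -1.39 ± 0.072, adjusted p = 1.5e-07). Afatinib alone lay far below the rest in Thbs1, while UO126 alone lay above in Mvd.

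Some stress and amino acid genes were higher with afatinib than with UO126. Of 17 ATF4 regulators and effectors 8 were higher and 1 lower, of 17 amino acid synthesis genes 10 and 2, of 11 transporters 7 and 1, of 25 lysosomal genes 6 and 0, and of 23 autophagy genes 7 and 0. Rises were not confined to afatinib: against DMSO, UO126 gave 15 higher and 0 lower of the 17 ATF4 genes, with a median of 0.60. For amino acid synthesis UO126 gave 7 and 1, for transporters 5 and 2, for lysosomal genes 5 and 1 and for autophagy genes 6 and 2. Trib3 had 54.1 and 56.5 CPM with UO126 and 118 and 109 CPM with afatinib (log2 difference 1.04 ± 0.069, adjusted p = 1.3e-06). Slc2a1 had 266 and 284 CPM with UO126 and 562 and 529 CPM with afatinib (log2 difference 0.99 ± 0.061, adjusted p = 8.4e-07). In both genes both UO126 libraries lay between those with DMSO and those with afatinib. The largest differences in favour of afatinib also included Acot2 (1.33), Abca1, a cholesterol exporter (1.32), Klf2 (1.21), Gpnmb (1.20), Mmp13 (1.13), Arrdc4 (1.06), Mmp3 (1.05), Cpt1a (0.99) and Hmox1 (0.99). Those in favour of UO126 included Cyp1b1 (-1.48), Mslnl (-1.44), Rhov (-1.39), Serpinb2 (-1.33), Has2, hyaluronan synthase (-1.24), Lpin1 (-1.23), Edn2 (-1.22) and Per2 (-1.22). Erbb3 was higher with afatinib than with UO126 by 0.54 and Fos by 0.37. Fos, the induced gene, had 813 and 875 CPM with UO126, lower than with DMSO (log2 fold change -0.44 ± 0.080, adjusted p = 0.0015). With afatinib Fos did not pass the test against DMSO. The part of the lower Fos level with UO126 in the differences between the inhibitors was not tested.

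**Figure D5:**
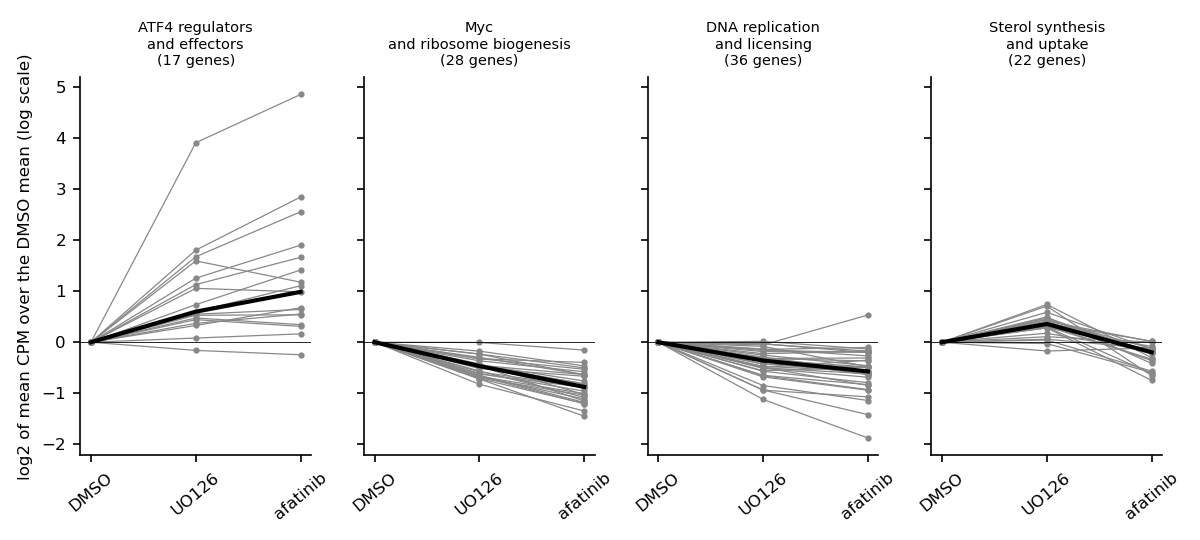
Each grey line is 1 gene of 4 lists (ATF4 regulators and effectors, Myc and ribosome biogenesis, DNA replication, and sterol synthesis), with the log2 of its mean CPM with UO126 and with afatinib over the DMSO mean on the y axis, and the black line is the list median. The x axis lists treatments and has no order of dose, and the DMSO mean is the common zero. Sterol genes lie above zero with UO126 (15 of 22 called higher) and below it with afatinib (10 of 22 called lower), and lines of ribosome biogenesis genes lie lowest with afatinib.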

How the data were processed

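Messenger RNA of ASZ001 cells was sequenced in 8 libraries, 2 per group, and 1 deposited table held expected counts per gene symbol. Per the submitters' processing notes and the series design text, the authors aligned reads with TopHat to mm9, counted with HOMER and used DESeq2; the counts are multiples of 0.5 and are not normalized. Versions are not given in the sources used here. The deposited estimated counts were rounded to whole numbers, and 26 date-like symbols of 24909 entries were dropped. The library kit named in the labels keeps no strand, so overlapping genes cannot be told apart, and genes with near-identical copies can share reads.

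Genes were kept by edgeR's filterByExpr (at least 10 counts, total at least 15), scaled by TMM and tested with edgeR 4.0.16 (quasi-likelihood, robust, R 4.3.3, limma 3.58.1), with 1 coefficient per group over all 8 libraries, 4 residual degrees of freedom and Benjamini-Hochberg adjustment over all 12879 genes. The common biological coefficient of variation was 0.0596. Standard errors are the log2 fold change divided by the square root of F. The fit was also run on simulated counts with few changed genes and no length trend. These data differ in both respects, so that run does not measure the error rates here. DESeq2 1.42.0 was an alternative. Gene length is the length column of the table.

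Named genes were the 15 largest rises and falls among called genes of at least 5 CPM without overlap, up to 4 called members per list, a set of receptors and kinases, and 10 genes per direction against UO126, 225 in all. A further 67 list members were named after their values were seen. The members and lists were chosen with earlier results of these data known. Promoters are the 250 bases before the RefSeq start (GRCm38.p6), matched by symbol for 9954 of the tested genes. Counting error limits the values of genes with few counts, which are given with their counts.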

Additional observations from a re-analysis of the deposited data

How the results depend on the processing

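Against DMSO, a 2-fold minimum left 346 higher and 279 lower genes. Leaving out 1 library gave 1905 to 3344 higher and 1692 to 3205 lower genes, lowest for lower genes without DMSO replicate 2 (1692) and afatinib replicate 2 (1749). The DESeq2 Wald test gave 2238 and 2198, no filter 3012 and 2879, the stricter filter 2545 and 2549, and DESeq2 size factors 2771 and 2707. Against UO126, the counts were 481 and 505 with only the 4 libraries compared, 378 and 408 at an adjusted p under 0.01, 26 and 50 with a 2-fold minimum, and 391 to 1316 and 307 to 1102 with 1 library left out. With the length trend removed they were 1025 and 1042. The cause of these differences was not tested. Same-numbered libraries did not deviate together (correlations of -0.038 for afatinib and DMSO, -0.21 for afatinib and UO126 and -0.085 for DMSO and UO126). A fit with the replicate number as a block called 2527 and 2537 genes against DMSO and 706 and 711 against UO126, and among the genes named by the rule it changed no call against DMSO. Among the 67 other named genes, Ctsz, Mcl1 and Slc1a5 lost theirs under the block (adjusted p = 0.052, 0.052 and 0.057). Spred1 differed between afatinib and UO126 by -0.01 and, by 0.28 and -0.23 without UO126 replicate 1 and 2 (adjusted p = 0.034 and 0.071). With the UO126 numbers swapped, chosen after seeing the data, the block gave 1032 and 996 against UO126. With 2 libraries per group, low-count genes such as Spry4 and Ivl carry wide errors.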

Other observations

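The gene families described here were chosen after their values were seen, so their counts describe these libraries only, beside 21.2% higher and 21.5% lower over all genes. Calls differed by gene length: 9.07% of the shortest quartile of genes (up to 1795 bases) were higher and 27.7% lower, with a median of -0.13, and 33.6% of the longest quartile (from 4354 bases) were higher and 14.0% lower. Cytosolic ribosomal protein genes were lower in 54 of 85 and higher in 0, with a median log2 fold change of -0.36. Their median length was 727 bases, within the shortest quartile. Mitochondrial ribosomal protein genes were lower in 44 of 77 and higher in 1, with a median of -0.24 and a median length of 1058 bases, also in that quartile. Host genes of small nucleolar RNAs, whose introns yield guides for ribosomal RNA modification, were lower in 10 of 14 and higher in 0, with a median of -0.67 and a median length of 669.5 bases. Snhg12, Snhg15 and Snhg5 fell by 1.53, 1.51 and 1.46, and 8 of the 14 were lower with afatinib than with UO126.

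Tubulins, the subunits of microtubules, were lower in 11 of 12 and higher in 0, with a median of -0.54 and a median length of 1727.5 bases in the shortest quartile, and 9 were also lower with afatinib than with UO126. Tubb5 and Tuba1b fell by 1.09 and 0.80, although tubulin copies can share reads. Genes whose symbols start with Eif and a digit were lower in 33 of 53 and higher in 7. They include initiation factors but also the eIF2 kinases and Eif4ebp1, so these are not counts of initiation factors alone. Eif4ebp1, which encodes an inhibitor of cap-dependent translation, rose by 1.45. Semaphorins, guidance ligands, were higher in 7 of 14 and lower in 1, with a median length of 4405.5 bases in the longest quartile: Sema6c and Sema3d rose by 2.31 and 1.23, and Sema4a fell by 1.06.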
